A study of Mus musculus with 4 samples.

Results

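The genes described here are 10 genes of mitochondrial clearance and autophagy in primary mouse hepatocytes: the kinase gene Pink1, the mitophagy receptor genes Bnip3, Bnip3l, Fundc1 and Phb2, the cargo adaptor genes Sqstm1 and Optn, the ATG8 family genes Map1lc3b and Gabarapl1, and the initiating kinase gene Ulk1. They were chosen by name, as the non-control probes of the array that carry these symbols, and not by their measured values. They are 10 of 37074 genes named on the array and of 16611 genes with a probe well above background on all 4 arrays. All 10 were among the latter, and so were all 20 of their probes.

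The study cultured hepatocytes of male C57BL/6 mice and set cells of liver-specific Drp1 knockout (Drp1LiKO) mice against control cells. Drp1 is the mitochondrial fission protein encoded by Dnm1l. Drp1LiKO mice carry a floxed Dnm1l allele recombined in the liver by Cre under the albumin promoter, which acts in hepatocytes. Controls were littermates that carry the floxed alleles and are called wild-type in the labels. Both kinds of cells were left untreated or given 200 μM palmitate, which makes 4 groups. Palmitate is a saturated fatty acid, and all cells were harvested 24 h after seeding. How long palmitate was present in the array cultures, the age of the animals and the number of animals behind an array are not given in the sources used here. For its cytokine and imaging experiments on such hepatocytes, the study states 24 h with palmitate, or with PBS for untreated cells. Each group had 1 array and no replicate, and the spread between animals is therefore unknown for every difference.

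In mitophagy, damaged or surplus mitochondria are enclosed by a double membrane, the phagophore, and delivered to lysosomes. PINK1 builds up on mitochondria that have lost their membrane potential and drives the ubiquitin tagging of their surface, after which adaptors such as p62 (Sqstm1) and optineurin (Optn) link the ubiquitin coat to lipid-bound ATG8 proteins on the phagophore. Receptors of the mitochondrial membranes bind ATG8 proteins directly. BNIP3 and NIX (Bnip3l) do so in hypoxia and during cell differentiation, FUNDC1 in hypoxia, and prohibitin 2 (Phb2) after the outer membrane has ruptured. ULK1 starts phagophore formation. Drp1 divides mitochondria, and fission releases fragments of a size that a phagophore can enclose. All of this is background, and the arrays measure mRNA only, not mitophagy.

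Levels are given in log2 units above or below the 75th percentile of the array, and they are compared between arrays for one probe, never between probes. Where a gene had several probes, the brightest is given first. A gene was counted as apart at 1.5-fold or 2-fold between 2 arrays. Probes printed 10 times had a median SD between repeat spots of 0.034 to 0.038 log2 units within an array, which gives 0.05 for a difference of 2 spots and covers spot noise only. As a check of the labels, the brighter probe of Dnm1l read 2.44 and 2.44 in untreated and palmitate-treated control cells against 1.08 and 1.02 in Drp1LiKO cells, and it passed the limma test by genotype (coefficient −1.39, SE 0.07, adjusted p = 0.0168). Drp1LiKO thus read 0.39-fold and 0.37-fold of control, still well above background. A dimmer second probe, not well above background on the palmitate arrays, differed by −0.35 untreated and 0.22 with palmitate. Hepatocyte markers were well above background on every array, 10 of 10, with summed linear levels between 1290.5 and 1336.69 times the 75th percentile. The macrophage list of 15 genes summed to 23.8 and 28.3 in the control arrays and to 55.2 and 53.2 in the Drp1LiKO arrays, with 8 to 11 and 12 to 13 genes well above background. Cd14 gave the largest part of both control sums and differed between the genotypes by only 0.22 untreated and 0.05 with palmitate. All 11 macrophage markers measured untreated read higher in Drp1LiKO, 10 of them at least 1.5-fold, with a median difference of 2.34. With palmitate all 8 measured did, 6 of them at least 1.5-fold, with a median of 1.65. Over all genes 10.3% and 7.6% were at least 1.5-fold higher. Of the defining macrophage markers, Timd4 and Cd163 stayed below that flag on all 4 arrays, as Clec4f and Vsig4 did on both control arrays and Vsig4 also on that of Drp1LiKO with palmitate. The endothelial list summed to 2.01 and 2.12 in control against 5.54 and 3.90 in Drp1LiKO, and the stellate list to 45.8 and 46.9 against 63.3 and 59.8. Most of each stellate sum came from Acta2, which differed between the genotypes by only 0.22 untreated and 0.02 with palmitate. Among markers well above background on both arrays compared, the largest genotype differences were those of Dcn and Col1a2, genes of the stellate list. They were 4.19 and 3.02 untreated and 4.04 and 2.44 with palmitate. Pdgfrb, Col3a1 and Lum of that list were well above background on both Drp1LiKO arrays and on no control array. Lyve1 of the endothelial list shared this pattern, and Lrat of the stellate list passed only on the untreated Drp1LiKO array. The lists of 3 other cell types thus read higher on both Drp1LiKO arrays than on both control arrays. The cholangiocyte list read 9.92 and 6.23 in control against 8.41 and 5.19 in Drp1LiKO, and the neutrophil and lymphocyte lists ranged from 34.6 to 41.6 and from 0.70 to 1.04 over the arrays. Nearly all of each neutrophil sum came from Csf3r. The part of such cells in the differences below was not tested. In such bulk samples, fewer cells of a type and less RNA per cell cannot be told apart.

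Only Bnip3 was at least 1.5-fold apart between the genotypes, and it was so in both conditions. Its region upstream of the transcription start is shown because this was the single gene of the 10 past the limma test. RefSeq promoter windows of GRCm38.p6 were matched by symbol for 9 of the 10 genes, and the 250 bases before the start were searched on both strands for ACGTG, the core of the hypoxia response element, for CACGTG, an E-box of the kind that TFEB binds, for TGACNNNGC, the antioxidant response element bound by NRF2, and for GTAAACA, a FOXO site. The Bnip3 window lies on the minus strand at chr7:138909507-138909756, is read 5′ to 3′ with the transcription start after its last base, and has its motif match in capitals.
Bnip3: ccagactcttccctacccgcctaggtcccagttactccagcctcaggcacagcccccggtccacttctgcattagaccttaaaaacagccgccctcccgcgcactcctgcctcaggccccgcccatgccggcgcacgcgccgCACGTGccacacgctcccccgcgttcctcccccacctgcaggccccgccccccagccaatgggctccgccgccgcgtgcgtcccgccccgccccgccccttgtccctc
The capitals mark 1 CACGTG, which begins 108 bases before the start. As a palindrome it holds ACGTG on each strand, so the 2 ACGTG matches of this window lie within it. Of the other 8 windows, that of Phb2 held 1 ACGTG, 198 bases before the start, and none held CACGTG. No window of the 9 held TGACNNNGC or GTAAACA. Over 32851 mouse promoter windows of that length, 16.6% held ACGTG, 6.0% CACGTG, 10.2% TGACNNNGC and 3.2% GTAAACA. A match is a run of letters and was not tested for binding.

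Pink1 read nearly alike on all 4 arrays. Its brightest probe, on chromosome 4 at 137869360 to 137869419 (mm9), read 2.44 in control, 2.31 in Drp1LiKO, 2.39 in control with palmitate and 2.47 in Drp1LiKO with palmitate. The genotype difference was −0.13 untreated and 0.08 with palmitate, and over both conditions limma gave a coefficient of −0.03 (SE 0.09, adjusted p = 0.841). A dimmer second probe spans 1970 bases of the genome with its 60 bases (chr4:137873943-137875912, mm9) and so joins exons. It is shown because it gave the widest spread for this gene.
Pink1 junction probe: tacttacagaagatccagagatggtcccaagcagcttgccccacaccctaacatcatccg
It read −1.12, −1.53, −0.99 and −0.99 in the same order of arrays. Its lowest value was that of untreated Drp1LiKO, 0.41 below control, whereas both palmitate arrays read alike, 0.01 apart.

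Bnip3, the receptor gene best known as a target of hypoxia-inducible factors, had higher mRNA in Drp1LiKO hepatocytes. Its only probe, on chromosome 7 at 146082760 to 146082819 (mm9), read 2.90 in control and 3.58 in Drp1LiKO without palmitate, and 2.98 in control and 3.71 in Drp1LiKO with palmitate. Both Drp1LiKO arrays lay above both control arrays. Drp1LiKO was 1.61-fold higher untreated (log2 difference 0.69) and 1.65-fold higher with palmitate (0.72), and untreated only 8.3% of measured genes, with palmitate only 5.5%, had a larger positive difference. In the additive limma model over both conditions Bnip3 was 0.71 higher on the log2 scale in Drp1LiKO (SE 0.07, adjusted p = 0.0263 by Benjamini-Hochberg over 16611 genes). The same model called 15.2% of all genes by genotype, 7.93% of all genes as higher in Drp1LiKO. The Bnip3 call was kept in 9 of 10 alternative analyses and lost (adjusted p = 0.124) when genes well above background on at least 1 array were tested, where limma called 0 of 20615 genes by genotype, against 5366 at an unadjusted p under 0.05. Palmitate went with small differences for Bnip3, 0.09 in control and 0.13 in Drp1LiKO (limma adjusted p = 0.497). Untreated arrays share 1 slide and palmitate arrays another, so palmitate and slide cannot be told apart. Both genotypes are present on each slide.

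**Figure D1:**
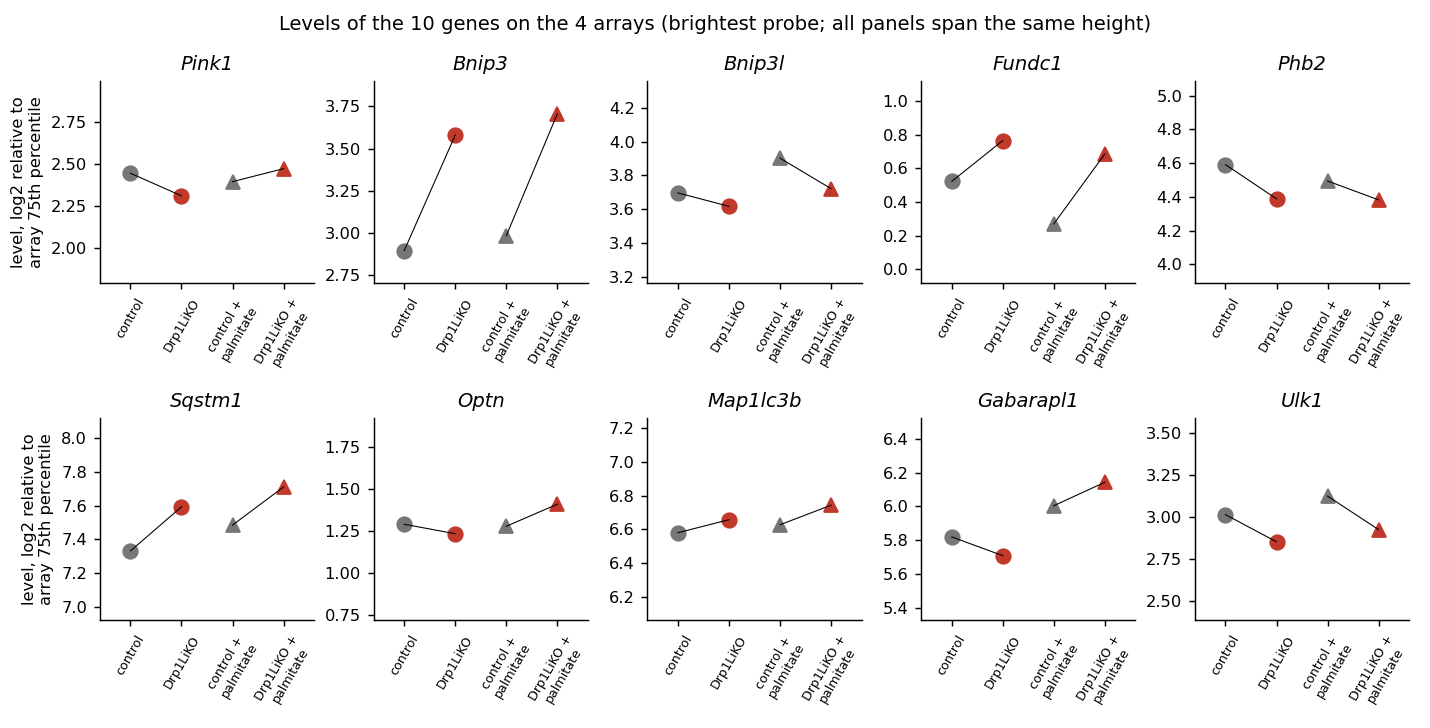
Level of each of the 10 genes (brightest probe) on the 4 arrays, 1 point per array (grey control, red Drp1LiKO, circles untreated, triangles with palmitate), as log2 relative to the 75th percentile of the array. Every panel spans the same height, lines join arrays of one condition, and Bnip3 has the widest range, 0.81 log2 units.

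Bnip3l, which encodes NIX, the closest relative of BNIP3, did not share this difference. Its brightest probe, on chromosome 14 at 67606210 to 67606269, read 3.70 in control, 3.62 in Drp1LiKO, 3.90 in control with palmitate and 3.72 in Drp1LiKO with palmitate. Drp1LiKO was the lower of each pair, by −0.08 untreated and −0.18 with palmitate, and limma did not call it (coefficient −0.13, SE 0.08, adjusted p = 0.295). A second probe had differences of −0.01 and −0.21 in the same comparisons. The genotype differences of Bnip3 and Bnip3l thus had opposite signs, a contrast that was not tested as such.

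Fundc1, whose product is a receptor of the outer mitochondrial membrane, lay higher in Drp1LiKO by less than 1.5-fold. The 1 probe, on chromosome X at 17133867 to 17133926, read 0.52 in control, 0.76 in Drp1LiKO, 0.27 in control with palmitate and 0.69 in Drp1LiKO with palmitate. Both Drp1LiKO values lay above both control values. The genotype difference was 0.24 untreated (1.18-fold) and 0.41 with palmitate (1.33-fold), and it missed the limma threshold (coefficient 0.33, SE 0.09, adjusted p = 0.0927). The palmitate array read lower than the untreated array in both genotypes, by −0.25 in control and −0.08 in Drp1LiKO. In control cells only 8.1% of genes had a lower value in that comparison.

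Phb2, the gene of an inner membrane prohibitin, read slightly lower in Drp1LiKO in both conditions. The values were 4.59 in control, 4.39 in Drp1LiKO, 4.49 in control with palmitate and 4.38 in Drp1LiKO with palmitate for a probe that joins exons at chr6:124665659-124666012. Differences by genotype were −0.20 and −0.11, and those of a second, dimmer probe were −0.24 and −0.12 (limma adjusted p = 0.227 for the brighter). Palmitate went with −0.10 in control and −0.01 in Drp1LiKO.

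Sqstm1, the gene of the adaptor p62, was higher in Drp1LiKO by every one of its probes, though by less than 1.5-fold. Its brightest probe, on chromosome 11 at 50013670 to 50013729, read 7.33 in control, 7.59 in Drp1LiKO, 7.48 in control with palmitate and 7.71 in Drp1LiKO with palmitate. Both Drp1LiKO arrays read above both control arrays. The genotype difference was 0.26 untreated (1.20-fold) and 0.23 with palmitate (1.17-fold). A second probe gave 0.25 and 0.49, and the dimmest one 0.28 and 0.19. Over both conditions limma gave 0.24 (SE 0.07, adjusted p = 0.111), which missed the threshold in that fit and passed it only when the prior variance followed the mean level (limma-trend, adjusted p = 0.0123). This was the only one of 10 alternatives that called Sqstm1. For palmitate the brightest probe differed by 0.15 in control and 0.12 in Drp1LiKO, the second by −0.01 and 0.24.

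Optn, the gene of optineurin, gave unlike readings from its 2 probes. The brighter one, on chromosome 2 at 4941834 to 4941893, read 1.29 in control, 1.23 in Drp1LiKO, 1.28 in control with palmitate and 1.41 in Drp1LiKO with palmitate, with genotype differences of −0.06 and 0.13 (limma adjusted p = 0.775). The other spans 3024 bases with its 60 bases (chr2:4945178-4948201, mm9) and is shown because it differed in sign from the first in untreated cells.
Optn junction probe: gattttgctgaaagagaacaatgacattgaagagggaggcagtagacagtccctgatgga
This probe read 0.61, 0.90, 0.47 and 0.88 in the same order, so that both Drp1LiKO arrays lay above both control arrays, by 0.30 untreated and 0.41 with palmitate. No direction can be given for Optn as a gene.

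Map1lc3b, the gene of the ATG8 protein LC3B, differed little between any arrays. Its brightest probe, on chromosome 8 at 124120787 to 124120846, read 6.58, 6.66, 6.63 and 6.74 in control, Drp1LiKO, control with palmitate and Drp1LiKO with palmitate. Differences by genotype were 0.08 and 0.12 (limma coefficient 0.10, SE 0.07, adjusted p = 0.388), and a second probe gave 0.06 and 0.12. The dimmest probe read close to background, with intensities of 30.2 to 51.7, and its highest value was that of Drp1LiKO with palmitate, 0.87 above untreated Drp1LiKO.

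Gabarapl1, an ATG8 gene known as a target of FOXO3, had the largest palmitate difference of the 10 in Drp1LiKO by the brightest probes, while in control cells those of Fundc1 and Bnip3l were larger in size. The brighter probe, on chromosome 6 at 129492254 to 129492313, read 5.82 in control, 5.71 in Drp1LiKO, 6.00 in control with palmitate and 6.14 in Drp1LiKO with palmitate. Both palmitate arrays lay above both untreated arrays. The palmitate difference was 0.19 in control (1.14-fold) and 0.43 in Drp1LiKO (1.35-fold), and 9.9% of genes had a larger positive one in Drp1LiKO. In limma the palmitate term was 0.31 (SE 0.10, unadjusted p = 0.0464, adjusted p = 0.298). A second probe read 1.48, 1.00, 1.56 and 1.75, so its palmitate difference was 0.08 in control and 0.74 in Drp1LiKO. By genotype both probes gave opposite signs without and with palmitate, −0.11 and 0.14 for the first and −0.48 and 0.19 for the second.

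Ulk1, the gene of the kinase that starts autophagosome formation, read slightly lower in Drp1LiKO. Its bright probe, on chromosome 5 at 111213514 to 111213573, read 3.01 in control, 2.85 in Drp1LiKO, 3.12 in control with palmitate and 2.92 in Drp1LiKO with palmitate. Differences by genotype were −0.16 and −0.20 (limma coefficient −0.18, SE 0.07, adjusted p = 0.175). A dim probe across a splice junction, with intensities of 40.6 to 64.3, gave 0.40 and 0.06, the opposite sign.

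**Figure D2:**
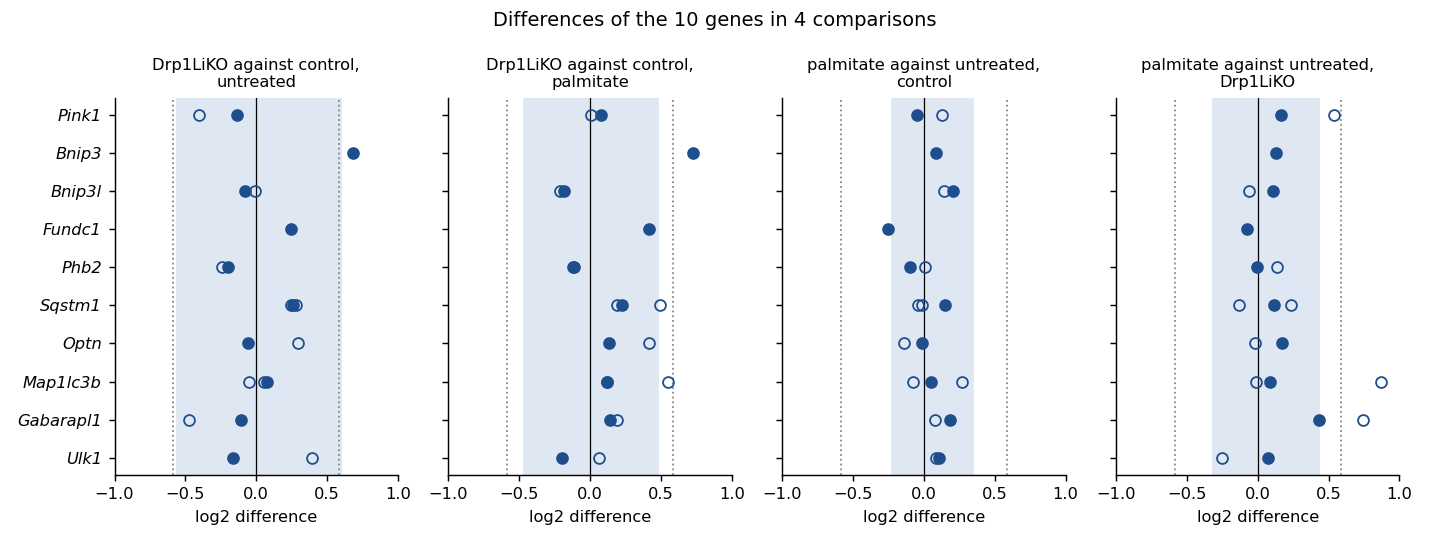
Log2 difference of each gene (rows) in the 4 comparisons (panels), filled points for the brightest probe and open points for further probes. The shaded band holds the middle 80% of all genes measured in that comparison, dotted lines mark 1.5-fold, and Bnip3 is the only filled point beyond them, in both genotype panels.

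Set against all genes, the 10 genes as a group did not stand out. At 2-fold 0 of 10 were apart in any comparison, where 7.82% of all genes were apart between the genotypes untreated, 5.55% with palmitate, 1.11% by palmitate in control and 2.4% by palmitate in Drp1LiKO. At 1.5-fold 1 of 10 was apart by genotype in each condition, Bnip3, against 19.6% of all genes untreated and 14.3% with palmitate. By palmitate 0 of 10 were 1.5-fold apart in control, against 4.86% of all genes, and 0 of 10 in Drp1LiKO, against 8.42%. These counts take the brightest probe of a gene, and of the other 10 probes those of Gabarapl1 (1.67-fold) and Map1lc3b (the dimmest, 1.83-fold) were more than 1.5-fold apart by palmitate in Drp1LiKO. The median genotype difference of the 10 was −0.07 untreated and 0.12 with palmitate, beside −0.04 and −0.05 over all genes. The median size of the difference, without sign, was 0.15 and 0.16, beside 0.25 and 0.21 over all genes. The median palmitate difference of the 10 was 0.07 in control cells and 0.11 in Drp1LiKO cells, and that of all genes was 0.01 in both. By genotype limma called 1 of the 10, beside 15.2% of all genes, and by palmitate 0 of the 10. Over all genes the palmitate term called 0% of 16611 genes, the smallest adjusted p being 0.225, and 2759 of them had an unadjusted p under 0.05. These 4 comparisons share arrays in pairs, untreated control entering both the genotype and the palmitate comparison. The 2 genotype comparisons share none, and in them 7 of 10 genes (70.0%) had the same sign, beside 78.5% of all genes. The exceptions were Pink1, Optn and Gabarapl1.

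**Figure D3:**
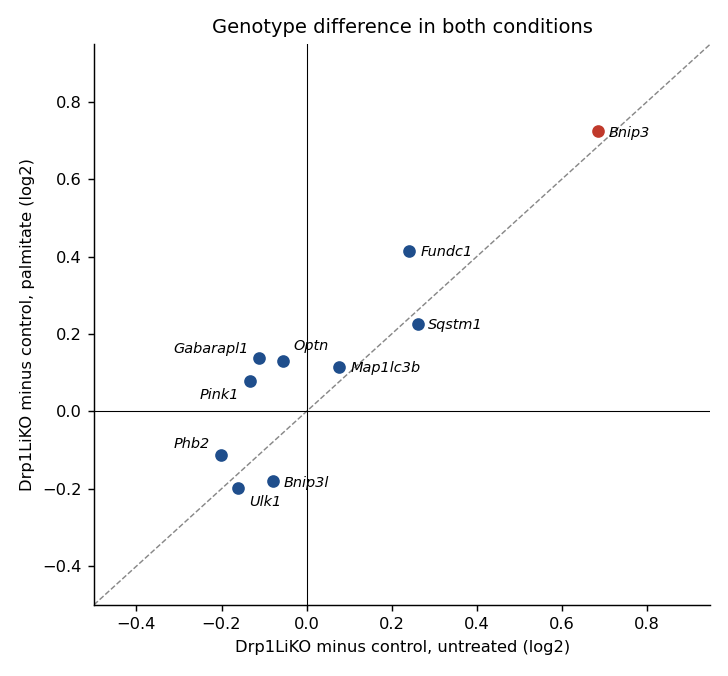
Genotype difference (Drp1LiKO minus control, log2, brightest probe) of each of the 10 genes without palmitate on the x axis and with palmitate on the y axis, with the line of equality dashed. Bnip3 (red) lies at 0.69 and 0.72, and the 3 genes to the left of 0 and above 0, Pink1, Optn and Gabarapl1, have opposite signs in the 2 conditions.

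Scaling affects the directions of the small differences. With the array median in place of the 75th percentile, the median of all genes moved by −0.18 untreated and −0.16 with palmitate, and the share of 1.5-fold calls that were higher in Drp1LiKO went from 52.5% to 30.7% untreated and from 53.2% to 31.7% with palmitate. On that scale Bnip3 differed by 0.50 and 0.57, and Map1lc3b in both conditions and Pink1, Optn and Gabarapl1 with palmitate changed sign to slightly lower in Drp1LiKO. Sqstm1 and Fundc1 kept their sign but fell, Sqstm1 to 0.08 untreated and 0.07 with palmitate and Fundc1 to 0.06 and 0.26. Relative to the median of all genes, the order of the 10 genes is the same on both scales, since the scaling adds 1 number to every gene of an array.

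The other genes of the pathway were read in lists of 10 to 31 measured genes. The PINK1 pathway and mitophagy receptors outside the 10 genes differed little between the arrays. Of 28 genes, among them Fkbp8, Bcl2l13, Usp30 and Mfn2, 0 were 1.5-fold apart in any of the 4 comparisons. Limma called 0 of them by genotype, beside 15.2% of all genes. With the array median it called 4 as lower and with limma-trend 2 as lower, beside 4076 and 2744 of all 16611 genes. With the mean of all probes it called 1 as higher and 1 as lower, beside 777 and 591 of all 16631 genes. The medians of the 28 genes were −0.01 untreated and −0.03 with palmitate, and the range was −0.41 to 0.34 and −0.24 to 0.27. Of 13 further cargo adaptors, limma called 1 as higher in Drp1LiKO, or 7.7%, beside 7.93% of all genes. This was Fam134b, a receptor for the endoplasmic reticulum (0.50, SE 0.07, adjusted p = 0.0397). Limma called 0 as higher with the array median, the mean of all probes or the filter of at least 1 array, where it called 1165, 777 and 0 of all genes higher. Calcoco1, another receptor for the endoplasmic reticulum, read −2.06, −1.78, −1.03 and −1.97 in control, Drp1LiKO, control with palmitate and Drp1LiKO with palmitate, so that only control cells with palmitate stood higher, by 1.03.

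Among the 14 ATG8 genes and conjugation enzymes, limma called 1 (7.1%) as higher in Drp1LiKO, beside 7.93% of all genes. This was Atg7, the E1-like enzyme that activates ATG8 and ATG12 (0.84, SE 0.07, adjusted p = 0.0223). The list had medians of 0.16 untreated and 0.08 with palmitate. Of 30 genes of initiation, phagophore growth and fusion that were tested, limma called 2 (6.7%), both higher in Drp1LiKO, a share under the 7.93% of all genes called higher. Tecpr1, which links autophagosomes to lysosomes, read 2.31 in control, 3.34 in Drp1LiKO, 2.18 in control with palmitate and 3.21 in Drp1LiKO with palmitate, a 2-fold difference in each condition (limma 1.03, SE 0.07, adjusted p = 0.0188). Epg5, a tether of the same fusion step, had a coefficient of 0.82 (SE 0.08, adjusted p = 0.027). Wipi1, which binds phosphoinositide on the phagophore, read 2.58, 1.44, 2.72 and 2.20 in the same order. Drp1LiKO was lower by −1.13 untreated and by −0.52 with palmitate, and limma did not call it (adjusted p = 0.0728).

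The lysosome list had the highest medians of the 8 lists. It holds lysosomal hydrolases, subunits of the proton pump and the TFEB family with its regulators. Of 30 measured genes, 15 (50.0%) were at least 1.5-fold higher in Drp1LiKO untreated and 12 (40.0%) with palmitate, beside 10.3% and 7.6% of all genes, and 0 were 1.5-fold lower. By sign alone 8 were lower untreated and 3 with palmitate, and the medians were 0.58 and 0.53. By genotype limma called 53.3% of the list, beside 15.2% of all genes, with 15 as higher and 1, Mitf, as lower (−0.48, SE 0.08, adjusted p = 0.0442). Among them were the proton pump subunit gene Atp6v1b2 (1.14, SE 0.10, adjusted p = 0.0238; 1.28 untreated and 1.00 with palmitate), the hydrolase genes Hexa (0.79, SE 0.07, adjusted p = 0.0238) and Ctsb (0.62, SE 0.07, adjusted p = 0.0297), and Ctss. Ctss, a cathepsin abundant in macrophages, had the largest difference, 3.23 untreated and 2.72 with palmitate, and went with the macrophage markers given above. Another pump subunit gene, Atp6v1h, stood higher by 1.29 untreated and 0.69 with palmitate and was not called (adjusted p = 0.0551). The genes of the factors TFEB and TFE3 read alike, with genotype differences of −0.01 and 0.12 for Tfeb and −0.03 and 0.00 for Tfe3. The part of other cells in these differences was not tested.

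Of 22 measured hypoxia-inducible factors and targets outside the 10 genes, 9 (40.9%) were at least 1.5-fold higher in Drp1LiKO untreated, beside 10.3% of all genes. With palmitate 8 (36.4%) were, beside 7.6% of all genes, and in each condition 0 of the 22 were 1.5-fold lower. By sign alone 15 were higher and 7 lower in each condition, and the medians were 0.41 and 0.43. By genotype limma called 9 as higher (40.9%), beside 7.93% of all genes, and 0 as lower. Pfkfb4, a regulator of glycolysis, read −2.82 in control, −0.57 in Drp1LiKO, −2.49 in control with palmitate and −0.91 in Drp1LiKO with palmitate (limma 1.91, SE 0.20, adjusted p = 0.0273). Adm and Ddit4, which encode adrenomedullin and an inhibitor of mTORC1, stood higher by 1.98 and 1.11 untreated and by 0.73 and 0.17 with palmitate, and limma called neither (adjusted p = 0.0922 and 0.187). Hif1a itself, the glucose transporter gene Slc2a1 and the growth factor gene Vegfa, chosen after their values were seen, were called with coefficients of 0.83 (SE 0.11, adjusted p = 0.0378), 0.75 (SE 0.07, adjusted p = 0.0246) and 0.79 (SE 0.07, adjusted p = 0.0238). Epas1, the gene of the other main hypoxia-inducible factor, the glycolytic genes Ldha, Pgk1 and Eno1, and Egln1, P4ha2 and Mxi1 had negative coefficients, from −0.23 to −0.04, none of them called.

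FOXO factors and targets had no common direction, with 1 of 10 tested genes called higher (Klf15, 1.02, SE 0.08, adjusted p = 0.0195) and 1 lower (Igfbp1, −0.81, SE 0.07, adjusted p = 0.023). Of all 16611 genes, limma called 1317 (7.93%) higher and 1208 lower. Foxo3 differed by 0.06 untreated and 0.46 with palmitate. Of 17 genes of NRF2 and its targets, to which Sqstm1 also belongs, limma called 3 (17.6%) as higher by genotype, beside 7.93% of all genes. These were Gstm1, Srxn1 and Txnrd1, and 0 were called lower. The medians of the list were 0.24 untreated and 0.16 with palmitate. Hmox1, an NRF2 target and the gene of heme oxygenase 1, read 3.21, 0.38, 4.44 and 4.78 in control, Drp1LiKO, control with palmitate and Drp1LiKO with palmitate.

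**Figure D4:**
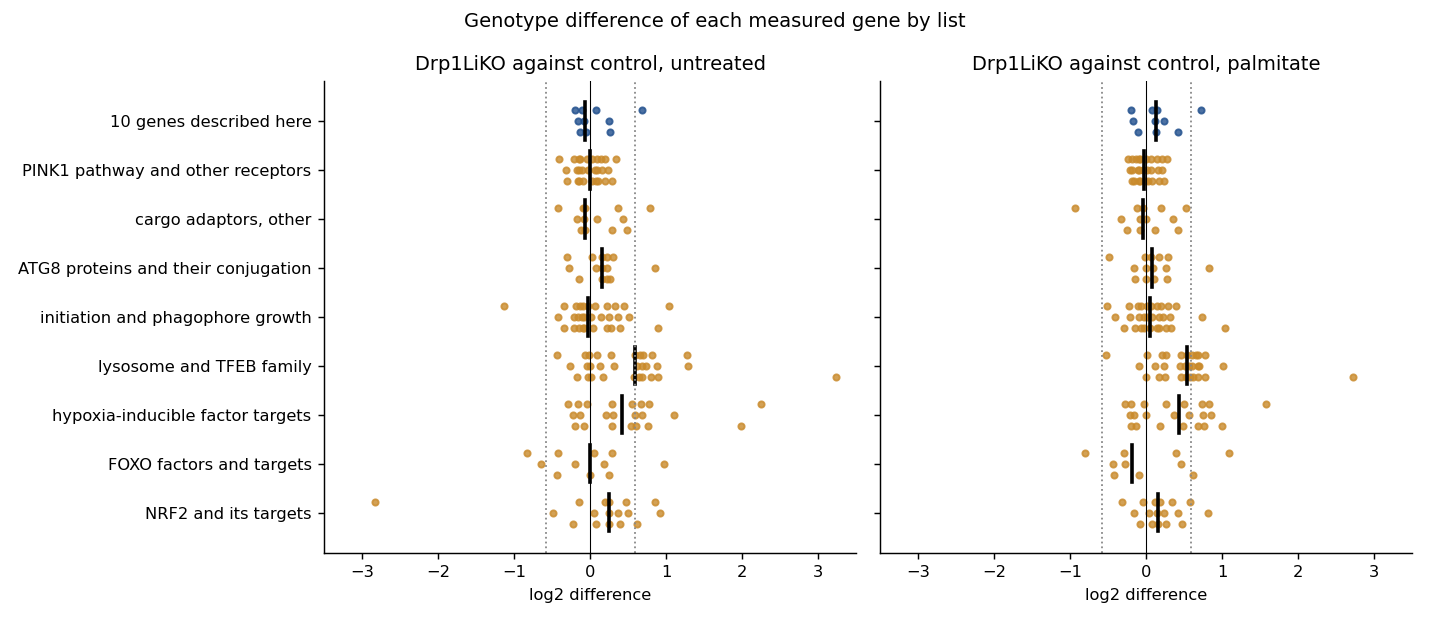
Genotype difference (Drp1LiKO minus control, log2) of every measured gene of each list, 1 point per gene, untreated on the left and with palmitate on the right, with black bars at the median and dotted lines at 1.5-fold. The lysosome list (medians 0.58 and 0.53) and the hypoxia-inducible factor targets (0.41 and 0.43) lie to the right of 0, and the PINK1 pathway list lies around 0.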

How the data were processed

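RNA of 4 cultures was labelled with 1 dye and hybridised to Agilent mouse arrays, 1 per group. The authors deposited 4 scanner tables of intensity values on a linear scale, background-subtracted within each array by Feature Extraction (10.7.1.1 per the file headers, 9.5.1.1 per the submitters' processing notes), and a table of processed intensity values that matches a quantile normalization and served as an alternative. Per the labels, the raw data of the untreated control array are shared with another series. The labels and the study's methods name different RNA extraction kits.

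Each deposited intensity was converted to log2 here and the array's 75th percentile over non-control spots (419.9 to 536.7) was subtracted. Outlier spots (47 to 71 per array) were left out, and no spot was saturated (0). Between 46.97% and 53.1% of spots were well above background. A gene was its brightest probe among those well above background on at least 1 array, and it was measured in a comparison where well above background on both arrays.

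Pairs of single arrays got no test. An additive model of genotype and palmitate over all 4 arrays (limma 3.58.1, R 4.3.3, two-sided, Benjamini-Hochberg adjusted p under 0.05, genes well above background on all 4 arrays) left 1 residual degree of freedom, which also holds the interaction. It was tested on simulated data. The p-values test the genotype or the palmitate term. Their error comes from the departure from additivity and from a variance prior shared by all genes, with 2.26 prior degrees of freedom. Arrays are single samples, so this error does not hold the spread between animals. Alternatives changed the scaling, background correction, choice of probe, filter, outlier spots and variance prior. The arrays' own gene names were used. Named genes were the 10 genes, Dnm1l as check, and the genes of each list at least 2-fold apart in any comparison (at most 4). The 2 measured markers with the largest genotype difference were named too, and others as stated or as the only calls of a list. Further markers were named by their flags or by their part in the sum of a list. Hexa, Ctsb, Fam134b, Atg7, Epg5, Mitf, Igfbp1, Foxo3, Tfeb, Tfe3, Gstm1, Srxn1, Txnrd1 and those of the PINK1 pathway list were named after their values were seen. An item of that list is not reported here. The members and lists were chosen with earlier results of these data known.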

Additional observations from a re-analysis of the deposited data

Results flagged for a closer look

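Gabarapl1 was flagged because its genotype difference had opposite directions without and with palmitate, by more than the spot noise in each. How many of all genes meet this rule was not counted. By sign alone, 7 of the 10 genes and 78.5% of all genes had the same direction in both conditions. The brighter probe differed by −0.111 untreated and 0.138 with palmitate, and the second probe by −0.478 and 0.191. With 1 array per group the difference between the conditions was not tested. On the scale of the array median the first probe gave −0.02 with palmitate.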

How the results depend on the processing

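Each difference was recomputed under 8 alternatives and each limma count under 10. Of 320 differences of the 10 genes, 268 moved by less than the spot noise of a difference, 52 by more, and 11 changed sign, 6 with the array median and 5 with the mean of all probes, each of them at most 0.16 in size as reported. The 268 hold 40 that could not move. These are those of the filter of at least 1 array, since all 20 probes of the 10 genes passed on every array. The differences at 1.5-fold, both of Bnip3, kept their sign. With the array median, 0 genes of the 10 were 1.5-fold apart by genotype in either condition (Bnip3 0.50 and 0.57), in place of 1. With the mean of all probes of a gene, 1 was 1.5-fold apart by palmitate in Drp1LiKO, Gabarapl1 (0.59), in place of 0. By genotype limma called 2 of the 10 with the array median (Bnip3 and Ulk1, the latter lower in Drp1LiKO, adjusted p = 0.0469) and 2 with limma-trend (Bnip3 and Sqstm1), and 0 with the wider filter (well above background on at least 1 array), against 1 in the analysis as reported. The limma calls by genotype over all genes numbered 2525, and 5241, 4894, 4072, 1368 and 0 with the array median, limma-trend, normexp, the mean of all probes and the wider filter. With the array median 1165 were higher and 4076 lower, against 1317 and 1208. The wider filter, which tests 20615 genes, also called 0 genes of every list. Under the other 9 alternatives the lysosome list had 9 to 19 genes called higher and 0 to 1 lower, the hypoxia-inducible factor targets 5 to 11 and 0 to 3, the PINK1 pathway list 0 to 1 and 0 to 4, the cargo adaptors 0 to 3 and 0 to 1, the ATG8 list 1 to 2 and 0 to 1, the initiation list 2 to 5 and 0 to 4, the FOXO list 1 to 2 and 1 to 4, and the NRF2 list 1 to 6 and 0 to 2. Under the same 9 alternatives 777 to 2150 of all genes tested (16608 to 16631) were called higher and 591 to 4076 lower. By palmitate limma called 2 genes with normexp and 12 with limma-trend, in place of 0, and none of the 10 genes. Over all genes the 1.5-fold counts, 3456 and 2398 by genotype untreated and with palmitate and 818 and 1503 by palmitate in control and Drp1LiKO, became 2212, 1544, 285 and 693 with normexp and 5299, 3987, 1978 and 2783 with the wider filter. The 2-fold counts, 1381, 932, 187 and 429, became 738, 521, 57 and 183 with normexp and 2870, 2175, 1072 and 1388 with the wider filter, and that for palmitate in control was 283 with the mean of all probes. The causes of these changes were not tested. No paired analysis was possible because the labels give no replicate numbers shared between groups. Slide coincides with palmitate, so the additive model already compares the genotypes within a slide. With 1 array per group none was left out. Probes near background, such as the dimmest of Map1lc3b, limit what their differences can show.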
